A study of Mus musculus with 30 samples.

Results

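The 9 genes described here are the Sox transcription factors of the SoxB1 group (Sox1, Sox2 and Sox3), the SoxB2 group (Sox21), the SoxC group (Sox4, Sox11 and Sox12) and the SoxD group (Sox5 and Sox6). They were found by symbol in a table of 45594 genes, and all 9 passed the filter on low counts that left 19897 genes for testing. Their levels were followed over 10 collection days, from mouse induced pluripotent stem cells (iPSCs) at day 0 (D0) through organoids collected at D4, D7, D10 and D12, then at D15 and D18, and last at D22, D25 and D32. The question behind the choice of genes was how Sox factors known from pluripotent cells, neural progenitors and neurons replace one another as a retina forms.

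Sox proteins bind DNA through a shared domain, the HMG box, which bends the DNA helix. SOX2 acts with OCT4 in pluripotent cells and, with its SoxB1 relatives, keeps neural progenitors undifferentiated, while SOX21 mostly represses targets of the SoxB1 proteins. SOX4, SOX11 and SOX12 activate genes of young neurons, and SOX5 and SOX6 lack an activation domain of their own and modulate other Sox proteins, as they do with SOX9 in cartilage. In the retina SOX2 is known from progenitors, Müller glia and some amacrine cells, and SOX4 and SOX11 from the generation of ganglion cells.

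RNA was poly(A)-selected and sequenced with a strand-specific kit in 3 libraries per day, labelled as biological replicates, 30 in all. All material came from 1 iPSC clone, made from fibroblasts of wild-type Nrl-GFP embryos at embryonic day 14.5, in which the promoter of the rod gene Nrl drives green fluorescent protein. The clone carries doxycycline-inducible lentiviral vectors for Oct3/4, Sox2, Klf4 and c-Myc, so reads of the Sox2 gene and of a Sox2 vector cannot be told apart in these counts. D0 samples were iPSCs kept on feeder cells with LIF and serum. Matrigel was added to the aggregates, D4 samples were 36 whole organoids, and later samples were neural retina dissected from 30 organoids at D7, from 20 at D10 and from 12 at each day from D12 to D32. The cultures were held at 5% oxygen to D10 and at 20% afterwards. N2 medium replaced the serum-replacement medium at D7. Taurine, 9-cis retinal and insulin-like growth factor 1 were present from D10 to D26, and B27 supplement and serum were added after D26. A change between days therefore contains the change of tissue sampled and of medium, which cannot be told apart from time.

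Libraries held 16.8 to 24.5 M estimated counts. Levels are given as CPM, counts scaled to a common library total with TMM factors, and levels of different genes were compared only per length, as TPM, the transcript estimates divided by length and scaled to the same total in every library. Calls were made at an adjusted p below 0.05 in edgeR's quasi-likelihood test with Benjamini-Hochberg adjustment over all 19897 genes, which is the test behind every adjusted p below. Log2 changes are of the later over the earlier day and are given with their standard error. In whole tissue, fewer cells of a type and less RNA per cell cannot be told apart. D4 stands apart in 2 ways: replicate 2 had a scaling factor of 0.524, the lowest of the 30, and replicate 3 differed from the others in several of the 9 genes, so the calls at D4 against D0 are given with and without it. The 30 libraries also fell into sets of 12 and 18 by the share of Rpl3 counts on Rpl3 pseudogenes (12.0 to 31.8% against 70.9 to 86.5%). D0 and D7 lay wholly in the set of 12 and D4 and D32 wholly in the set of 18. On every day from D10 to D25 the set of 12 held replicate 2 and the set of 18 held replicates 1 and 3, so set and replicate number cannot be told apart there. Over those days 861 of 18291 genes differed between the sets and none of the 9 Sox genes was among them, the lowest adjusted p being 0.071 for Sox6.

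The start of the HMG box is shown because it lets the 9 genes be compared base by base. The 4 group names are those in general use. The stretches below are 60 bases (20 codons) of the reference coding sequence, from GENCODE M21 on GRCm38, 5′ to 3′ on the strand of the gene. They begin at the codon before the conserved residues RPMNAF near the start of the box. Capitals mark bases that differ from Sox2. Every stretch lies within 1 exon and is coding.
Sox2: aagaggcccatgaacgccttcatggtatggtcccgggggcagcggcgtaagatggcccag
Sox1: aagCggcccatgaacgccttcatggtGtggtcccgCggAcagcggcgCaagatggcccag
Sox3: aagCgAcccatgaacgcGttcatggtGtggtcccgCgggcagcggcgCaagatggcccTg
Sox21: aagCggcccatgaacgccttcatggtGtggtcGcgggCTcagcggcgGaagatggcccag
Sox4: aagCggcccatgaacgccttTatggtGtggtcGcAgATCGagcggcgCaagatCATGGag
Sox11: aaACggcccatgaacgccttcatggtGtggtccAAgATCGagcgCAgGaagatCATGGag
Sox12: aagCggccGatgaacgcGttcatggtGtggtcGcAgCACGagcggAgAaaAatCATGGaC
Sox5: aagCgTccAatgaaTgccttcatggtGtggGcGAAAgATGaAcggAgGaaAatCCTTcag
Sox6: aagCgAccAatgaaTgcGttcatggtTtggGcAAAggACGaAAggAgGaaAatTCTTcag
The stretches lie at chr3:34650545-34650604 on the plus strand for Sox2, chr8:12396514-12396573 on the plus strand for Sox1, chrX:60892939-60892998 on the minus strand for Sox3 and chr14:118235552-118235611 on the minus strand for Sox21. The SoxC stretches lie on minus strands at chr13:28952785-28952844 for Sox4, chr12:27342202-27342261 for Sox11 and chr2:152397519-152397578 for Sox12. Those of Sox5, at chr6:143841217-143841276, and Sox6, at chr7:115489706-115489765, are also on minus strands.

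Compared with Sox2, 5 to 7 of the 60 bases differed in Sox1, Sox3 and Sox21, 15 to 19 in the SoxC genes, and 21 and 22 in Sox5 and Sox6. The box thus set SoxC and SoxD apart from SoxB, but not Sox21 from the SoxB1 genes. The same order held over a fixed window of 237 bases (79 codons) from the first codon shown. This window stands for the box below, and its limits were not taken from a domain annotation. Nucleotide identity was 86.5 to 89.9% among the SoxB1 genes, 86.9 to 88.6% between Sox21 and the SoxB1 genes, 82.7 to 87.3% among the SoxC genes and 81.9% between Sox5 and Sox6. Between groups it was 65.8 to 70.0% for SoxB1 with SoxC, 56.1 to 61.6% for SoxB1 with SoxD and 55.7 to 62.0% for SoxC with SoxD. The box lies in 1 exon in the 7 SoxB and SoxC genes, whose longest coding transcripts all have 1 exon, and spans more than 1 exon in Sox5 and Sox6, whose longest coding transcripts have 15 and 16 exons.

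All 9 genes changed over the 10 days in the test over all days, which called 91.4% of all tested genes. The weakest of these calls was that of Sox5, with an adjusted p of 7.4e-05. The order of highest days ran from Sox2 at D0 over Sox1, Sox3 and Sox21 at D4, Sox6 at D7, Sox11 and Sox12 at D10 and Sox4 at D22 to Sox5 at D25. Several of these highest days overlap their next highest day in the single libraries, as given for each gene below.

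**Figure D1:**
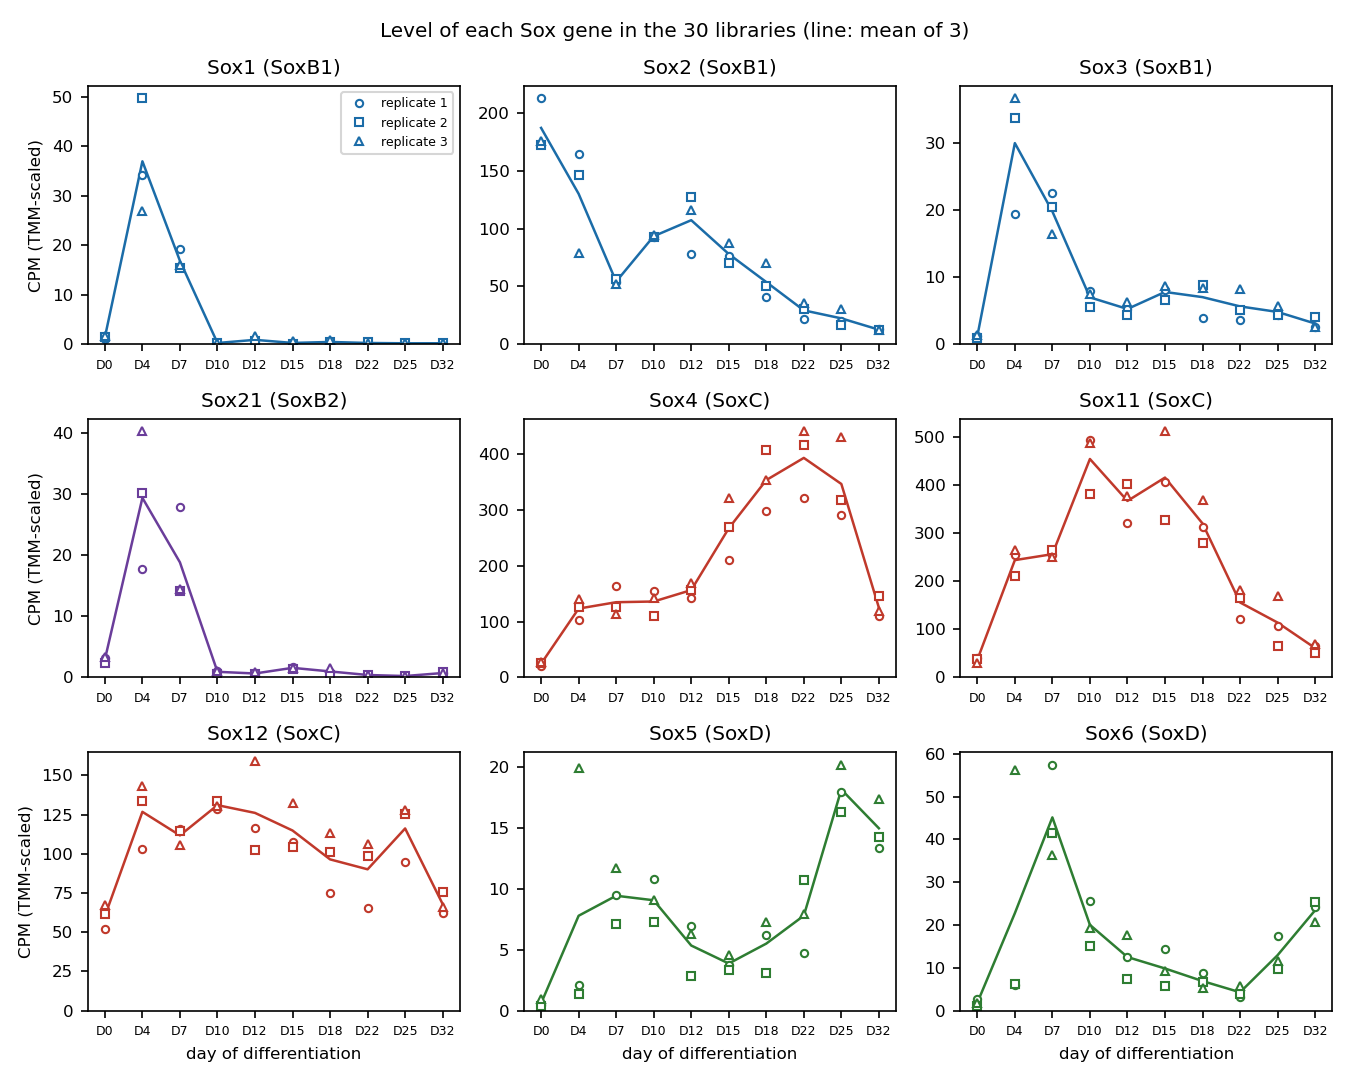
Level of each of the 9 Sox genes (CPM after TMM scaling, linear axis from 0, own scale per gene) by day of differentiation, days evenly spaced. Open points are the 3 libraries of a day, told apart by shape, and lines join the day means. Sox2 starts at a mean of 187 CPM, Sox1, Sox3 and Sox21 have a short maximum at D4, Sox11 and Sox4 follow with maxima at D10 and D22, and the triangles of Sox5 and Sox6 at D4 lie far above the other points of that day.

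Sox2 was the SoxB1 gene of the iPSCs and was the only one of the 9 genes that was lower at D7 than at D0. It had 53.5, 56.8 and 52.2 CPM in the D7 libraries, against 213, 172 and 176 CPM in the D0 libraries. The 2 days did not overlap, and the log2 change was -1.79 (SE 0.24, adjusted p = 7.8e-07). The D4 libraries fell in between with 165, 147 and 79.04 CPM, replicate 3 being the lowest. The difference of D4 against D0 was not called (log2 change -0.52, SE 0.24, adjusted p = 0.067). It was -0.25 (adjusted p = 0.38) without D4 replicate 3, but was called without D4 replicate 1 (log2 change -0.72, adjusted p = 0.027), with library sizes only (log2 change -0.80, adjusted p = 0.0045) and with limma (adjusted p = 0.048 with 1 CPM added and 0.0495 with 0.1). The difference of D7 against D4 was called (log2 change -1.26, SE 0.24, adjusted p = 0.00018), also without D4 replicate 3 (log2 change -1.51). Sox2 was the only one of the 9 genes called at D7 against D4, with 42.8% of all genes called, but 4 of the 9 were called without D4 replicate 3, 3 without D4 replicate 1 and 2 without D7 replicate 1.

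Sox2 then had a second, lower maximum. It stood at 92.6, 93.0 and 94.7 CPM at D10, against 53.5, 56.8 and 52.2 CPM at D7, without overlap (log2 change 0.79, SE 0.24, adjusted p = 0.012), a call that was missed at an adjusted p of 0.051 without D7 replicate 3. The D12 libraries held 78.1, 127 and 116 CPM and overlapped those of D10. From there the day means were lower at each later day, 78.0 CPM at D15, 53.7 at D18, 29.2 at D22, 22 at D25 and 12.5 at D32. D18 and D7 had nearly the same mean of Sox2 (53.7 and 54.2 CPM, log2 change -0.01, SE 0.24, adjusted p = 0.97), although the libraries of D10 between them all lay higher.

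The late fall of Sox2 was called between D32 and D18, with 12.71, 12.62 and 12.24 CPM in the D32 libraries against 40.7, 50.6 and 69.9 CPM in the D18 libraries (log2 change -2.10, SE 0.25, adjusted p = 2.0e-07). All D32 libraries lay below all D18 libraries. Single steps within it were less firm. D22 vs D18 had a log2 change of -0.88 (SE 0.24, adjusted p = 0.023), which was not called without D18 replicate 3, D22 replicate 1 or D22 replicate 2 (adjusted p = 0.16, 0.14 and 0.063). D32 vs D25 had a log2 change of -0.83 (SE 0.25, adjusted p = 0.016), which was not called without D25 replicate 3, D32 replicate 2 or D32 replicate 3 (adjusted p = 0.16, 0.050 and 0.052).

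The summed level of 8 proliferation genes moved with Sox2 over the late days. It was 129 to 148 CPM at D32, against 1652 to 1899 CPM at D18, and all 8 genes were lower. At D7 this sum was 2400 to 2565 CPM, against 4233 to 4387 CPM at D0, with 6 of 8 genes lower. The sum of 8 genes of fibroblasts and feeder cells was 72.9 to 86.2 CPM at D7, against 497 to 1323 CPM at D0, with 7 of 8 lower. Of 8 Müller glia genes, 6 were higher and 1 lower at D32 than at D18, and their sum was 778 to 1005 CPM at D32, against 529 to 546 CPM at D18, while Sox2 was lower. The same sum was already 505 to 660 CPM in the iPSCs of D0 and 743 to 758 CPM at D10. The part of these cell types in the course of Sox2 was not tested.

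Sox2 lies inside an intron of the longer noncoding gene Sox2ot, whose course differed from that of Sox2. Sox2ot averaged 20.9 ± 2.3 CPM at D22, its highest day, against 1.45 ± 0.38 CPM at D0 (SD, n = 3 each). It was higher at D22 than at D18 (log2 change 1.07, SE 0.32, adjusted p = 0.036), in the step in which Sox2 was lower. It was also higher at D7 than at D0 (log2 change 1.72, SE 0.36, adjusted p = 0.0002), where Sox2 was lower, and both were lower at D32 than at D25 (log2 change of Sox2ot -1.61, SE 0.33, adjusted p = 0.0007). Whether strand was used in the counting is not given in the sources used here, but both genes lie on the plus strand.

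**Figure D2:**
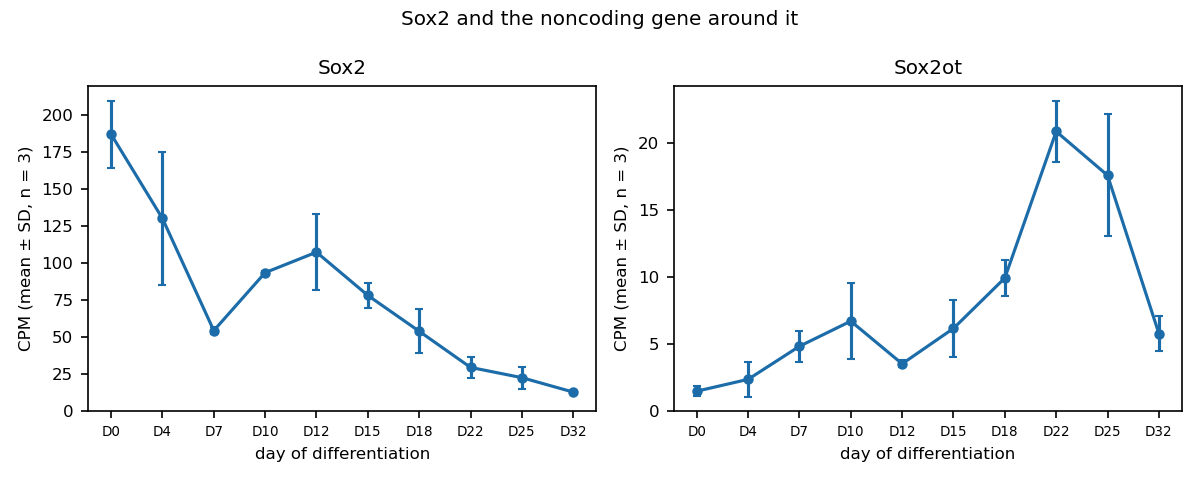
Mean level (CPM, linear axis from 0) of Sox2 and of the noncoding gene Sox2ot by day, days evenly spaced, with bars of 1 SD over 3 libraries. Sox2 is highest at D0 with a second maximum at D12, while Sox2ot is highest at D22 with a mean of 20.9 CPM and is lower again at D32.

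Sox3, which like Sox1 is a SoxB1 gene of the early neural plate, was near the floor in iPSCs and highest in the whole aggregates. Its libraries held 19.5, 33.8 and 36.7 CPM at D4, against 1.16, 0.985 and 1.39 CPM at D0, a log2 change of 4.67 (SE 0.36, adjusted p = 7.2e-11). D7, with 22.5, 20.4 and 16.5 CPM, overlapped D4. Sox3 was lower at D10, with 7.98, 5.48 and 7.48 CPM against the D7 values, and did not overlap them (log2 change -1.50, SE 0.30, adjusted p = 0.00032). From D10 to D25 its day means lay between 4.80 and 7.79 CPM with no called step, and at D32 it averaged 3.08 ± 0.79 CPM, against 7.02 ± 2.7 CPM at D18 (SD, n = 3 each; log2 change -1.18, SE 0.31, adjusted p = 0.0029). D32 and D18 overlapped, since D18 replicate 1 held 3.93 CPM.

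Sox1 had the sharpest course. It was measured at 34.3, 49.7 and 26.9 CPM at D4, against 1.10, 1.4 and 1.62 CPM at D0 (log2 change 4.74, SE 0.57, adjusted p = 1.4e-07). D7 followed with 19.2, 15 and 15.9 CPM, below every D4 library, but D7 vs D4 was not called (log2 change -1.13, SE 0.47, adjusted p = 0.056). This lay close to the threshold, with a call without D4 replicate 3 (adjusted p = 0.033) and with DESeq2 (adjusted p = 0.034). At D10 it had 0.243, 0.145 and 0.308 CPM, against those D7 values, which was the largest change of any of the 9 genes in any of the 12 comparisons (log2 change -6.15, SE 0.66, adjusted p = 1.2e-07). After D10 no library exceeded 1.58 CPM and D15 replicate 2 had 0 CPM. D32 vs D18 was not called (log2 change -1.27, SE 0.78, adjusted p = 0.20), but was without D18 replicate 1 (log2 change -1.82, adjusted p = 0.047).

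Sox21, the SoxB2 gene, ran nearly parallel to Sox1. It had 17.8, 30.1 and 40.2 CPM at D4, against 3.09, 2.38 and 3.29 CPM at D0 (log2 change 3.33, SE 0.35, adjusted p = 2.1e-08). The D7 libraries held 27.9, 14.1 and 14.4 CPM and overlapped D4. At D10 they were down to 1.07, 0.582 and 1.08 CPM, against the D7 values (log2 change -4.36, SE 0.38, adjusted p = 5.1e-09). At low level it was higher again at the end, with 0.633, 0.806 and 0.691 CPM at D32, against 0.234, 0.184 and 0.237 CPM at D25 (log2 change 1.67, SE 0.48, adjusted p = 0.012), a step missed at an adjusted p of 0.050 without D25 replicate 2 and, in limma on log2(CPM + 1), at 0.15 with a change of 0.48. A step up at D15 against D12 (log2 change 1.30, SE 0.39, adjusted p = 0.043) was lost without any 1 of the 6 libraries (adjusted p = 0.051 to 0.16).

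Of the 9 genes, 8 were higher at D4 than at D0, every one except Sox2, in a comparison that called 27% of all genes as higher. Without D4 replicate 3 these 8 were still called, with log2 changes of 0.99 for Sox12 to 4.94 for Sox1, and without D4 replicate 2 they were called with 1.02 to 4.56. At D7 against D0 the same count was 8 higher and 1 lower, with 28.8% of all genes higher and 29.6% lower. The median log2 change of the 9 genes was 2.81, against 0.00 over all tested genes.

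All 3 SoxC genes were called higher at D4 than at D0. Sox11 had 254, 211 and 266 CPM at D4, against 41.2, 37.5 and 30.7 CPM at D0 (log2 change 2.74, SE 0.24, adjusted p = 1.2e-09). It did not differ measurably at D7 from D4 (254, 264 and 250 CPM at D7, log2 change 0.07, SE 0.23, adjusted p = 0.83). A second rise followed at D10, with 493, 381 and 487 CPM, above every D7 library (log2 change 0.83, SE 0.23, adjusted p = 0.0059). The D10, D12, D15 and D18 libraries overlapped in sequence, with means of 454, 367, 415 and 320 CPM.

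Sox11 fell first among the SoxC genes. It had 121, 164 and 182 CPM at D22, against 312, 278 and 369 CPM at D18, without overlap (log2 change -1.04, SE 0.23, adjusted p = 0.0044). The step to D32, with 64.2, 49.6 and 68.8 CPM against 108, 65.3 and 168 CPM at D25, overlapped (log2 change -0.90, SE 0.23, adjusted p = 0.0055) and was not called without D25 replicate 3 (log2 change -0.51, adjusted p = 0.10) or with only the 6 libraries compared (log2 change -0.85, adjusted p = 0.0505). Over the whole span, D32 against D18, Sox11 changed by -2.39 (SE 0.24, adjusted p = 9.9e-09), and Sox11 remained higher at D32 than in every D0 library.

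Sox4 rose in 2 stages. The first was between D0 and D4, with 102, 127 and 141 CPM at D4, against 20.4, 24.8 and 27.9 CPM at D0 (log2 change 2.34, SE 0.20, adjusted p = 6.5e-10). It then stayed between 110 and 169 CPM in all 9 libraries of D7, D10 and D12. The second stage came at D15, with 210, 268 and 322 CPM against 142, 157 and 169 CPM at D12 (log2 change 0.77, SE 0.19, adjusted p = 0.012), not called without D12 replicate 1 or D15 replicate 3 (adjusted p = 0.063 and 0.096).

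The D18 libraries of Sox4 held 298, 408 and 354 CPM, against 163, 126 and 114 CPM at D7 (log2 change 1.39, SE 0.19, adjusted p = 1.6e-06), the only gene of the 9 called higher over that span, in which 49.1% of all genes were called, 5338 of 19897 as higher and 4423 as lower. Sox11 also had all D18 libraries above all D7 libraries, but was not called (log2 change 0.32, SE 0.23, adjusted p = 0.25). D18, D22 and D25, with means of 353, 393 and 346 CPM, overlapped one another. At D32 it had 110, 146 and 118 CPM, below every D25 library, which held 291, 318 and 430 CPM (log2 change -1.47, SE 0.19, adjusted p = 3.1e-06). The fall of Sox4 was thus first called at D32, and that of Sox11 at D22.

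The difference in timing between Sox4 and Sox11 was also seen within libraries, where scaling does not enter. The log2 ratio of Sox4 to Sox11 per length was 2.07 to 2.20 in the D22 libraries, against -1.0 to -0.88 in the D10 libraries. Every library from D18 to D32 had more Sox4 than Sox11 per length, with ratios of at least 0.73, and every D10 and D12 library had less. The D15 libraries lay on both sides of 0, from -0.15 to 0.51.

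Sox12 was the SoxC gene that moved least. It had 103, 133 and 143 CPM at D4, against 52.0, 61.5 and 67.1 CPM at D0 (log2 change 1.07, SE 0.18, adjusted p = 2.8e-05). In the order of its day means, from 131 CPM at D10 to 60.2 CPM at D0, every pair of neighbouring days overlapped. It was lower at D32, with 62.1, 75.5 and 66.2 CPM, than at D25, with 95.0, 125 and 128 CPM (log2 change -0.77, SE 0.18, adjusted p = 0.003). The change of D32 against D18 was smaller (log2 change -0.51, SE 0.18, adjusted p = 0.027), the days overlapped, and the call was lost without D18 replicate 2, D18 replicate 3, D32 replicate 1 or D32 replicate 3 (adjusted p = 0.073, 0.14, 0.097 and 0.071) and with library sizes only (adjusted p = 0.096).

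Marker sums of 3 retinal cell types are given beside the SoxC genes. The sum of 8 ganglion cell genes was highest at D15, at 271 to 561 CPM. It was 204 to 281 CPM at D18 and 62.1 to 97.0 CPM at D22, the day at which Sox11 was lower. The sum did not go with Sox11 on every day. It was 248 to 304 CPM at D0, where Sox11 had its lowest mean, and 112 to 119 CPM at D32, where Sox11 was lower than at D22. The ganglion cell list shares Thy1 with the list of fibroblasts and feeder cells, and the D0 iPSCs were kept on feeder cells. The part of feeder cells in the D0 sum was not tested. The sum of 8 amacrine genes was 473 to 492 CPM at D32, against 172 to 255 CPM at D18, and that of 8 photoreceptor genes was 6257 to 8029 CPM at D32, against 395 to 663 CPM at D18, while the 3 SoxC genes were lower at D32 than at D18. At D25 the amacrine sum was 512 to 739 CPM, above every D32 library. None of these lists had a gene at 0 on those days, and their part in the SoxC levels was not tested.

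Levels per length allow the 9 genes to be set against each other. At D0 Sox2 held 139 ± 19 TPM (SD, n = 3), above Sox12 with 20.6 ± 2.2 TPM, and every other gene was at most at 8.64 TPM in every library. At D7 Sox11, Sox4, Sox2 and Sox12 had means of 56.0, 51.1, 47.9 and 45.6 TPM, and neighbours in that order overlapped. At D10 Sox11 and Sox2 led with 114 ± 17 and 95.2 ± 4.9 TPM and overlapped. At D18 Sox4 stood alone at 143 ± 22 TPM, above Sox11 with 74.8 ± 8.4 TPM and Sox2 with 50.5 ± 12 TPM, and it was still first at D32 with 60.9 ± 11 TPM, above Sox12 with 35.7 ± 4.8 TPM.

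**Figure D3:**
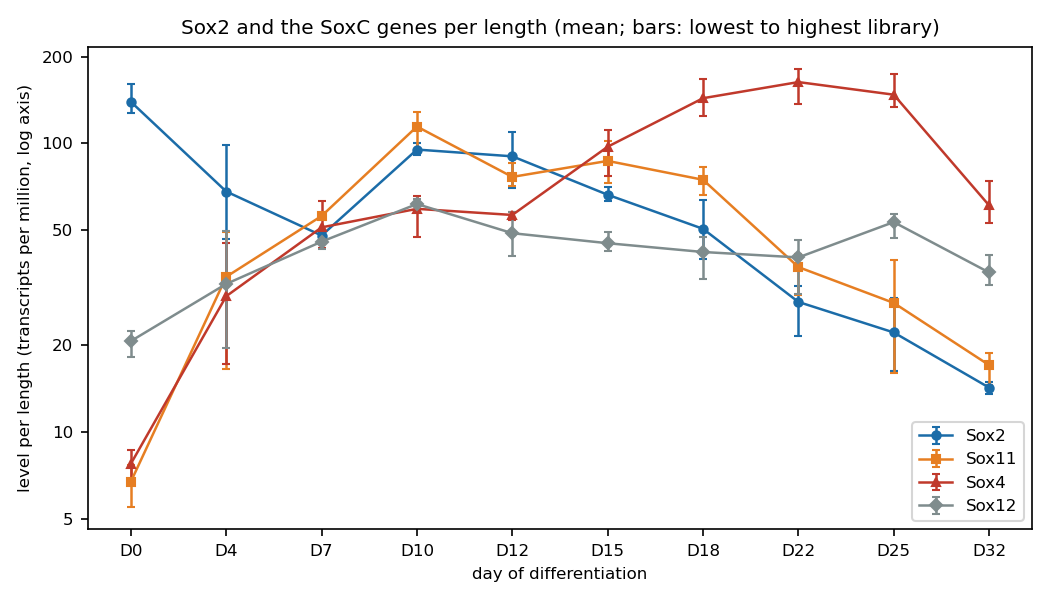
Level per length (TPM, log axis) of Sox2, Sox11, Sox4 and Sox12 by day, days evenly spaced. Points are means of 3 libraries and bars run from the lowest to the highest library. Sox2 is first at D0 with 139 TPM and the 4 genes meet at D7. Sox4 has the highest mean from D15, where it still overlaps Sox11, and reaches 163 TPM at D22.

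Put together as shares of the summed TPM of the 9 genes, SoxB1 gave way to SoxC. SoxB1 made up 78.97 ± 3.0% of the sum at D0, 46.8 ± 11% at D4 (54.3, 51.9 and 34.1% in the libraries, replicate 3 last), 28.3 ± 1.4% at D7, 29.3 ± 2.0% at D10 and 33.3 ± 4.2% at D12. From D15 its share was lower, 23.8 ± 1.5%, and it reached 9.90 ± 1.2% at D25 and 11.9 ± 0.53% at D32 (SD, n = 3 each). SoxC made up 19.9 ± 3.0% at D0 and 45.7 ± 5.2% at D4 (42.2, 43.2 and 51.7% in the libraries). Its share was 60.1 ± 0.81% at D7, 80.7 ± 2.6% at D18, 86.0 ± 1.0% at D22 and 75.6 ± 1.1% at D32. In TPM, the SoxC sum was 235 ± 27 at D10, 182 ± 7.6 at D12, 229 ± 30 at D15, 260 ± 23 at D18 and 241 ± 39 at D22. The SoxB1 sum was 102 ± 5.5 TPM at D10 and 33.7 ± 7.6 TPM at D22. The higher SoxC share at D22 than at D10 thus came with a lower SoxB1 sum and a similar SoxC sum. SoxB2 exceeded 1% at D4 and D7 only, with 4.22 ± 1.6% and 3.49 ± 1.2%, and in the D4 libraries it was 2.63, 4.19 and 5.85%. SoxD had 2 maxima, 8.11 ± 1.0% at D7 and 12.25 ± 0.73% at D32, and was between 1.57 and 2.27% from D12 to D22.

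**Figure D4:**
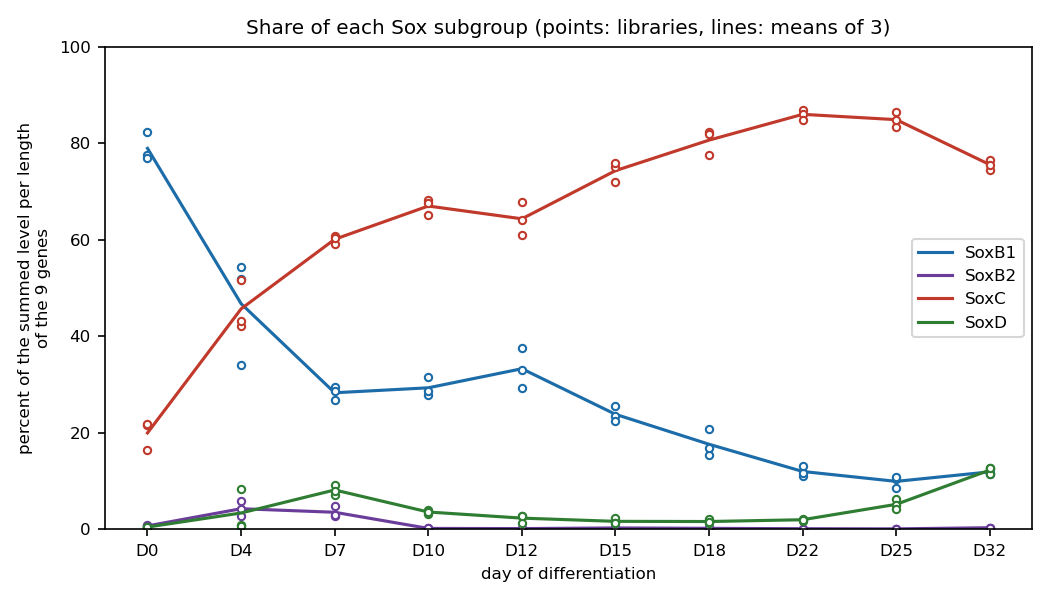
Share (percent, axis 0 to 100) of each Sox group in the summed level per length of the 9 genes, by day, days evenly spaced. Open points are libraries and lines join the means of 3. The mean lines of SoxB1 and SoxC meet at D4. The D4 libraries lie apart, with SoxB1 above SoxC in replicates 1 and 2 and below it in replicate 3. SoxC leads from D7, and SoxD has its 2 maxima at D7 and D32.

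The SoxD genes had an early and a late maximum, and at D4 a single library was already high. Sox6 had 5.89, 6.16 and 56.2 CPM at D4, against 2.76, 0.985 and 1.73 CPM at D0, the high value being that of replicate 3. Its log2 change of 3.65 (SE 0.64, adjusted p = 3.7e-05) was 1.74 (SE 0.43, adjusted p = 0.0014) without D4 replicate 3. At D7 all 3 libraries were high, with 57.5, 41.5 and 36.5 CPM, against the D0 values (log2 change 4.63, SE 0.66, adjusted p = 1.4e-06). The level of D4 replicate 3 thus lay within the range of D7.

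Sox5 showed the same outlying library, with 2.10, 1.33 and 20.0 CPM at D4, against 0.442, 0.363 and 0.983 CPM at D0. Its log2 change was 3.72 (SE 0.71, adjusted p = 9.3e-05), and 1.57 (SE 0.49, adjusted p = 0.0095) without D4 replicate 3. At D7 it had 9.47, 7.11 and 11.7 CPM, above all D0 libraries (log2 change 3.99, SE 0.71, adjusted p = 2.9e-05). In D4 replicate 3 Sox2 was at 79.04 CPM, the lowest of that day, and Sox3 and Sox21 were at 36.7 and 40.2 CPM, the highest of that day.

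After D7 Sox6 was lower and then higher again, and the course of Sox5 was less firm. The spread of a gene was estimated once over all 30 libraries, so D4 replicate 3 also enters the SEs of other days. At D10 vs D7 the libraries of Sox6 did not overlap, but it was not called (log2 change -1.17, SE 0.55, adjusted p = 0.095). With only the 6 libraries compared this SE was 0.22, and that of D32 vs D25 was 0.22, against 0.55. The part of D4 replicate 3 in these SEs was not tested. Sox6 averaged 6.89 ± 1.7 CPM at D18, against 45.1 ± 11 CPM at D7 (SD, n = 3 each; log2 change -2.71, SE 0.58, adjusted p = 0.00039), with no overlap, and had its lowest day since D0 at D22 with 3.29, 3.85 and 5.71 CPM. Sox5 had 6.18, 3.09 and 7.25 CPM at D18, and its change from D7 was not called (log2 change -0.78, SE 0.58, adjusted p = 0.28). At D32 Sox6 had 24.2, 25.4 and 20.7 CPM, against 8.75, 6.63 and 5.30 CPM at D18, without overlap (log2 change 1.76, SE 0.57, adjusted p = 0.013), a call missed without D18 replicate 3 (adjusted p = 0.056).

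Sox5 reached its highest day earlier, with 17.9, 16.3 and 20.2 CPM at D25, and D32 with 13.3, 14.2 and 17.4 CPM overlapped it. Against D18 its D32 libraries were all higher (log2 change 1.44, SE 0.58, adjusted p = 0.045), but this call was lost without any 1 of the 6 libraries (adjusted p = 0.052 to 0.17), with library sizes only (adjusted p = 0.055) and with a term for the library set (adjusted p = 0.056). Over D32 against D18 the 9 genes counted 2 higher, Sox5 and Sox6, and 5 lower, with 20.6% of all genes higher and 23.7% lower, but 4 genes were called in all without D18 replicate 3. At D25 against D22 none of the 9 was called, with 2.47% of all genes called. In this step same-numbered libraries deviated together. With the replicate number as a block over all 30 libraries, still 0 genes were called. With this block in a fit of D10 to D25 only, which leaves out the D4 libraries, 2 were called higher. These were Sox5 (log2 change 1.17, SE 0.31, adjusted p = 0.031) and Sox6 (log2 change 1.55, SE 0.29, adjusted p = 0.0047). Their SEs over all days with no block were 0.57 and 0.58. Which part of the setting gave the calls was not tested.

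Within Sox5 and Sox6 the transcripts with the largest share were the same at most days. Sox5-001, of 7243 bases, took 69.3 ± 11% of Sox5 counts at D7 and 65.8 ± 5.8% at D32. At D25 another transcript of 7184 bases held 32 ± 10%, against 14.2 ± 12% at D22 (SD, n = 3 each), and 10 ± 2.6% at D32. Sox6-001, of 8668 bases, held between 60.8 ± 7.1% at D15 and 82.1 ± 5.9% at D22. Divided by transcript length, the share of Sox5-001 was 46.6% at D7 and 35.5% at D32, and that of Sox6-001 was 34.9% at D15 and 62.8% at D22. These are model-based divisions of few reads, about 209 counts of Sox5-001 per library at D25, among 14 annotated transcripts of Sox5 and 16 of Sox6.

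**Figure D5:**
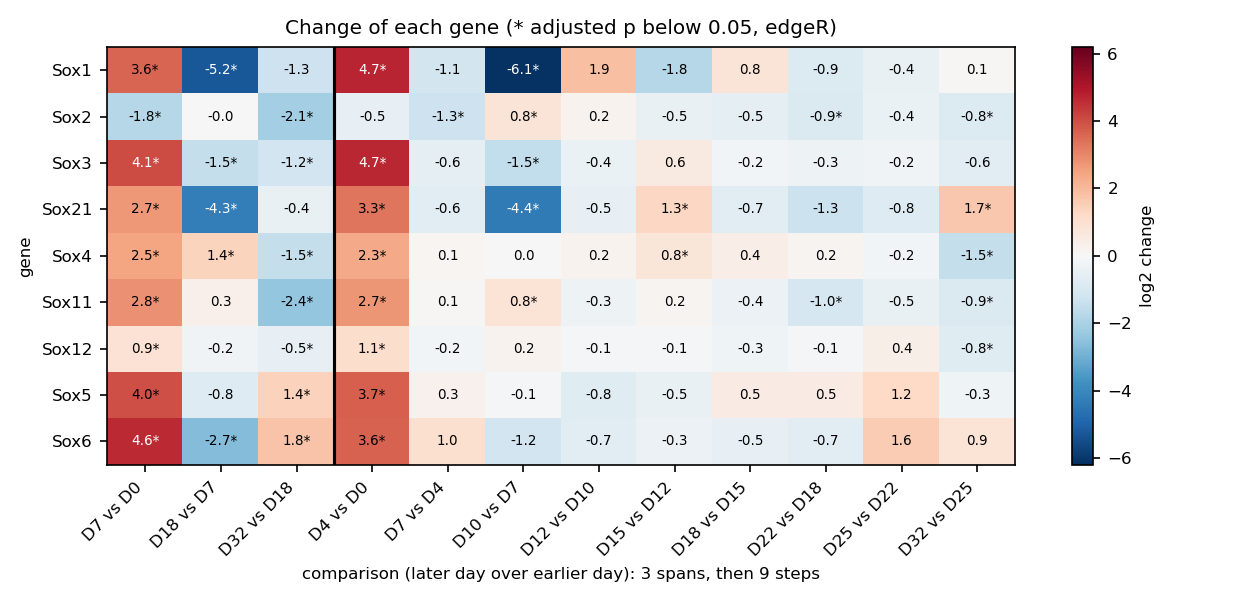
Log2 change of each of the 9 genes (rows) in 3 spans and 9 steps (columns, later day over earlier day). Colour and number give the change, and an asterisk marks an adjusted p below 0.05 in edgeR's quasi-likelihood test. The D4 vs D0 column is marked in 8 of 9 rows, and D12 vs D10, D18 vs D15 and D25 vs D22 have no mark.

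In the other comparisons the counts were as follows. D18 against D7 called 5 genes, Sox4 as higher and Sox1, Sox3, Sox21 and Sox6 as lower, with 49.1% of all genes called. D10 against D7 called 2 higher (Sox2 and Sox11) and 3 lower (Sox1, Sox3 and Sox21), with 20% and 17.8%. D15 against D12 called 2 higher, with 5.13% of all genes higher, D22 against D18 called 2 lower (Sox2 and Sox11), with 4.44% lower, and D32 against D25 called 1 higher and 4 lower, with 9.31% and 13.8%. D12 against D10 and D18 against D15 called none, with 4.41% and 2.89% of all genes called. At D22 against D18 the block fitted to D10 to D25 only added Sox21 as lower (log2 change -1.23, adjusted p = 0.046, against 0.059 over all days with no block). At D32 against D25 the count was 3 without D25 replicate 3, and at D22 against D18 it was 1 without D18 replicate 3, D22 replicate 1 or D22 replicate 2.

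Genes known to work with the Sox factors are counted here by list. Over all genes tested, 28.8% were higher and 29.6% lower at D7 against D0, 5338 and 4423 of 19897 (49.1% in all) at D18 against D7, and 20.6% and 23.7% at D32 against D18, and nothing particular to a list is read from its counts. The list of 10 pluripotency genes bound by SOX2 with OCT4 was lower at D7 than at D0 in 10 of 10, with a median log2 change of -5.96. Tdgf1, a co-receptor of Nodal, averaged 1.85 ± 0.62 CPM at D7, against 659 ± 150 CPM at D0, and Fgf4, a growth factor with a classic SOX2 and OCT4 enhancer, averaged 1.37 ± 0.51 CPM at D7, against 211 ± 35 CPM at D0 (SD, n = 3 each). At D18 against D7 8 of 10 were lower (median -3.78). Sox2 itself was at 53.7 CPM at D18, when Sall4, a pluripotency factor, had fallen to 0.844 ± 0.89 CPM, against 32.7 ± 6.9 CPM at D7.

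Of 18 POU factors and progenitor genes that act beside SoxB1, 16 were higher and 1 lower at D7 than at D0, with a median log2 change of 5.53. Six3, an eye field factor, averaged 60.5 ± 14 CPM at D7, against 0.055 ± 0.096 CPM at D0. Pou3f2, a POU partner of SOX2 in neural cells, averaged 12 ± 8.7 CPM at D7, against 0.018 ± 0.032 CPM at D0. Over D18 against D7, 8 were higher and 4 lower (median 0.69). Over D32 against D18, 1 was higher and 12 lower (median -1.27). Nes, the progenitor filament nestin, was at 25.6 ± 9.6 CPM at D32, against 103 ± 21 CPM at D18, while Prom1, also a photoreceptor disc protein, was higher at 618 ± 110 CPM, against 121 ± 3.6 CPM (SD, n = 3 each).

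The list of neuronal genes downstream of or beside SoxC had 20 genes in 21 identifiers, since Tead2 had 2. At D7 against D0 14 identifiers were higher and 3 lower (median log2 change 1.71), at D18 against D7 18 were higher and 1 lower (median 2.29), and at D32 against D18 3 were higher and 14 lower (median -1.43). Atoh7, the factor needed for ganglion cells, averaged 0.113 ± 0.10 CPM at D32 and 33.9 ± 8.0 CPM at D18, a log2 change of -8.15 (SE 0.44). For Tead2, a target of SOX4 and SOX11, 1 of its 2 identifiers averaged 221 ± 10 CPM at D18, against 385 ± 13 CPM at D7. This change was opposite in direction to that of Sox4. It was the only identifier of the list called lower in that span, so the other Tead2 identifier was not called lower. Plxna2, a semaphorin receptor, averaged 315 ± 49 CPM at D32, against 98.7 ± 13 CPM at D18 (SD, n = 3 each), while both Sox4 and Sox11 were lower. Medians over all tested genes were 0.00, 0.05 and -0.01 in the 3 spans.

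Of 8 cartilage genes known as targets of SoxD with SOX9, 6 were tested. They counted 4 higher and 1 lower at D7 against D0 (median log2 change 2.59), 0 higher and 4 lower at D18 against D7 (median -1.92), and 3 higher and 1 lower at D32 against D18 (median 0.76). Col9a1, a collagen chain, averaged 79.8 ± 16 CPM at D7, against 0.125 ± 0.076 CPM at D0. At D32 it averaged 66.5 ± 5.9 CPM, against 24.1 ± 14 CPM at D18, in the span in which Sox6 was higher. Col2a1, the main collagen of cartilage, averaged 47.0 ± 9.3 CPM at D32, against 124 ± 22 CPM at D18, in the other direction (SD, n = 3 each).

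The genes whose level over the 30 libraries was most like that of each Sox gene are a description among 11940 genes, by Pearson's r of log2(CPM + 1), and the libraries share their days. Sox21 was the gene most like Sox1, and Sox1 the one most like Sox21 (r = 0.96). Sox2 was most like Xkr5 (r = 0.97), Sox3 like Fzd8 (r = 0.91), Sox4 like Btbd17 (r = 0.95), Sox11 like Six5 (r = 0.97) and Sox12 like Zc3h7b (r = 0.94). Sox5 was most like Srcin1 (r = 0.89) and Sox6 like Dtna (r = 0.87), the lowest values of the 9.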

How the data were processed

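Trimmomatic 0.36 for trimming, kallisto 0.42.4 for quantification on GRCm38.p4 and edgeR for normalisation are named in the submitters' processing notes. The authors deposited estimated counts per gene, estimated counts per transcript and a normalised signal per gene (CPM). Per the file headers, 9 further columns match no listed sample and were not used. Gene estimates were rounded and tested in edgeR 4.0.16 (R 4.3.3) after filterByExpr (minimum count 10, total 15), TMM scaling and 1 mean per day over 30 libraries. TPM came from the transcript estimates divided by annotated length. Depth limits precision for genes near 0 CPM. Lists and partners were drawn by the rule of all 9 genes, the 3 genes most alike, and per list and span up to 2 called genes with the largest fold each way. The latter had no overlap and at least 10 CPM on the higher day. Not every gene so drawn is named in the text. Only the most alike gene of each member is given, and in the lists some genes of larger fold than those named are left out. A gene that this rule names is not reported here. The members and lists were chosen with earlier results of these data known. The scripts were tested on simulated data.

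Identity in the HMG box was planned on proteins. Nucleotides of GENCODE M21 transcripts were used instead. Alternatives were RLE factors, library size only, DESeq2 1.42.0, 2 other filters, limma 3.58.1 on log2 of the deposited CPM plus 1 or 0.1, a replicate block, a term for the library set, only the 6 libraries compared, and leaving out each library. A replicate block over D10 to D25, in a fit of those days only, was added after seeing the data. Same-numbered libraries deviated together from D10 to D25 (r = 0.16 to 0.45 in the 5 steps, in every pair over 0.1), and in none of the spans or other steps did all pairs pass that value. Python 3.11.15, pandas 2.3.3, Biopython 1.88 and matplotlib 3.10.9 were used for transcripts, sequences and figures.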

Additional observations from a re-analysis of the deposited data

How the results depend on the processing

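Of 53 log2 changes in spans, called steps and 3 steps not called, 52 kept direction and call with RLE factors, DESeq2, a filter of at least 1 CPM in 3 libraries, limma with 0.1 added, and the replicate block. The exception was Sox1 in D7 vs D4, which gained a call, or, with limma, Sox2 in D4 vs D0. Library size only moved the median log2 change of all genes by 0.19 (D7 vs D0), 0.17 (D18 vs D7), 0.40 (D7 vs D4) and -0.18 (D4 vs D0), and turned Sox2 in D18 vs D7, which was not called, to 0.10. Leaving out D7 replicate 2, D18 replicate 1 or D18 replicate 2 also turned it (range over the 6 left out -0.25 to 0.16), and Sox21 in D32 vs D18, not called either, ranged from -0.81 to 0.053, positive without D18 replicate 3. Sox11 in D7 vs D4, not called, ranged from -0.022 without D4 replicate 2 to 0.15. The number of the 9 genes called at D7 vs D4, 1 in the report, was 2 with RLE factors, library size only, DESeq2, the CPM filter, limma with 0.1 added, the replicate block or only the 6 libraries, and 4 with limma and 1 added. At D15 vs D12 it was 1 in place of 2 with library size only, no filter, limma with 1 added or only the 6 libraries. At D12 vs D10 DESeq2 called 1 in place of 0. Most steps not called lay outside the 53, and some gained a call. At D10 vs D7 the count was 6 in place of 5 with the term for the library set, with Sox6 lower (adjusted p = 0.033). It was 7 with only the 6 libraries, with Sox6 lower (adjusted p = 0.0021) and Sox12 higher (adjusted p = 0.030). With only the 6 libraries Sox6 was also called higher at D32 vs D25 (adjusted p = 0.013). At D25 vs D22 the replicate block over D10 to D25 called 2 in place of 0 and at D22 vs D18 3 in place of 2, and in the other steps and spans the block moved no count by over 1.5 times other than at D7 vs D4. Leaving out 1 library gave 1 to 4 at D7 vs D4, 4 to 7 at D32 vs D18, 0 to 1 at D15 vs D12, 1 to 3 at D22 vs D18, 0 to 1 at D25 vs D22 and 3 to 5 at D32 vs D25. Where the text names no cause of these differences, the cause was not tested. Lengths reduced to effective lengths moved 42 of 90 gene levels per length by more than their SD, and dividing by transcript length moved 23 of 60 transcript shares.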

Other observations

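Of the other 11 Sox genes in the table, 8 were tested. Sox9, a SoxE gene of progenitors and Müller glia, was already higher at D4 than at D0 (log2 change 3.61, SE 0.34, adjusted p = 2.7e-09, edgeR's quasi-likelihood test with Benjamini-Hochberg adjustment). D7 was also higher than D0 (log2 change 3.45, SE 0.34, adjusted p = 3.1e-09) and did not differ measurably from D4 (log2 change -0.16, SE 0.28, adjusted p = 0.69). The day means of Sox9 stayed between 16.7 and 33.4 CPM from D4 to D32. Sox8, its SoxE relative, came later. It averaged 28.3 ± 6.4 CPM at D18, against 4.04 ± 0.67 CPM at D7 (SD, n = 3 each; log2 change 2.81, SE 0.29, adjusted p = 1.6e-08), and was highest at D25 with 51.5 ± 7.1 CPM. Sox13, the SoxD gene outside the 9, had another course than Sox5 and Sox6. It averaged 3.25 ± 0.19 CPM at D32, against 16.6 ± 4.3 CPM at D18 (log2 change -2.35, SE 0.22, adjusted p = 2.0e-09), in a span in which Sox5 and Sox6 were higher.

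Sox30, known from male germ cells, was at most 0.36 CPM in any D0 library and averaged 14.2 ± 0.76 CPM at D32, against 0.779 ± 0.33 CPM at D18 (SD, n = 3 each; log2 change 4.18, SE 0.39, adjusted p = 2.9e-09). Sox15, a gene of pluripotent cells, averaged 0.465 ± 0.16 CPM at D7, against 15 ± 1.3 CPM at D0 (log2 change -4.99, SE 0.48, adjusted p = 2.7e-09). These genes were not among the 9 and their values are given as measured, with no explanation tested.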
